A study of Danio rerio with 96 samples.

Results

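Pools of 5 zebrafish embryos were compared with single embryos that came through the same exposure and were extracted on the same day. The labels put 40 of the study's 96 libraries in this comparison. They are 24 libraries of 5 pooled embryos each, called pool5, in extraction batches 1, 2 and 3, and 16 libraries of 1 embryo each, called pool1, in extraction batches 1 and 2. Every batch held 8 libraries. All 40 came from the exposure that began on 12 December and were extracted on 17 December, and they were chosen from these labels alone, not from any measured value.

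The study set out to learn how many embryos to put in a sample before a dose-response experiment, with samples of 1, 5, 10 or 20 embryos. Both groups were whole embryos at 120 hours post fertilization, kept at 28 °C. Both had been held for 5 days in Petri dishes with 0.1% dimethyl sulfoxide (DMSO), the solvent in which test chemicals are usually given. No library of either group received another chemical, so every one is a vehicle control, and the labels give no strain, sex or genotype. Whether the samples of one batch had their own dish or parents is not in the labels. P-values therefore measure only how far these samples differ, which may be technical. The plate column was the extraction batch, and no batch held both pool sizes. Plate column and batch therefore cannot be told apart, and pool sizes can be compared only between batches.

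RNA was measured with TempO-Seq, in which pairs of short detector oligonucleotides anneal side by side on an RNA, are ligated, amplified and sequenced. Each feature is thus the target of a probe rather than a full transcript, and this panel covers a chosen set of genes rather than the whole transcriptome. A pool mixes the RNA of its embryos before the probes meet it, so its level is an average over those embryos. Averaging narrows the differences between samples, leaves the mean level where it was, and lets RNA present in 1 embryo show in the whole pool. The features carry no gene or probe name in the table used here, so they are called by row number, counted from 1, and no role is given to any of them.

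The table held 3183 rows, of which 10 were 0 in all 40 libraries. Total counts ran from 4278771 to 6441627 in pool5 and from 3336312 to 5343504 in pool1, and the means were 5075360 ± 622950 (SD, n = 24) and 4071220 ± 597470 (SD, n = 16). Levels are given in CPM, counts divided by the library's total after edgeR's TMM scaling and brought to a common scale. A count of 0 allows a level of up to 3 counts, which, on the unscaled totals, equals 0.466 to 0.701 CPM in pool5 and 0.561 to 0.899 CPM in pool1. Without molecular identifiers on the reads, such limits hold for counting error alone. The 10 most abundant rows took 29.8% ± 1.62 of the counts in pool5 and 27.6% ± 2.10 in pool1 (SD, n = 24 and 16).

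Some libraries stood apart from their batch. On the first principal component of log2 CPM, which held 30.2% of the variance over 2406 rows, samples 5 to 8 of batch 1 lay away from samples 1 to 4 in both pool sizes. In pool5 they averaged 28.2 ± 22.3, against -7.05 ± 7.08 for samples 1 to 4. In pool1 they averaged 36.97 ± 13.8, against -7.77 ± 4.40 (SD, n = 4 each). Sample 6 of pool5 batch 1 lay farthest out, at 60.2, and sample 8 of pool1 batch 2 lay at 23.1 while the others of its batch lay at -10.9 or lower. The well row of the plate followed the sample number, and its part in this pattern was not tested. The tests and the second component were also run without these libraries, and the main changes are given below. Other descriptions were not rerun without them.

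The 2 pool sizes parted on the second component, which held 8.09% of the variance. The 24 pools lay between 3.14 and 12.1 and the 16 single embryos between -24.8 and -2.67, so the groups did not overlap. They also lay apart with every library thinned to 3000000 counts, over the rows with a mean count of at least 200, without sample 6 of pool5 batch 1, and without sample 8 of pool1 batch 2. Without samples 5 to 8 of batch 1 in both pool sizes they overlapped, from -2.03 to 11.9 in pool5 and from -33.0 to 5.44 in pool1. Fewer cells of a type and less RNA per cell cannot be told apart in whole embryos, so a level here belongs to the embryo and not to a tissue.

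**Figure D1:**
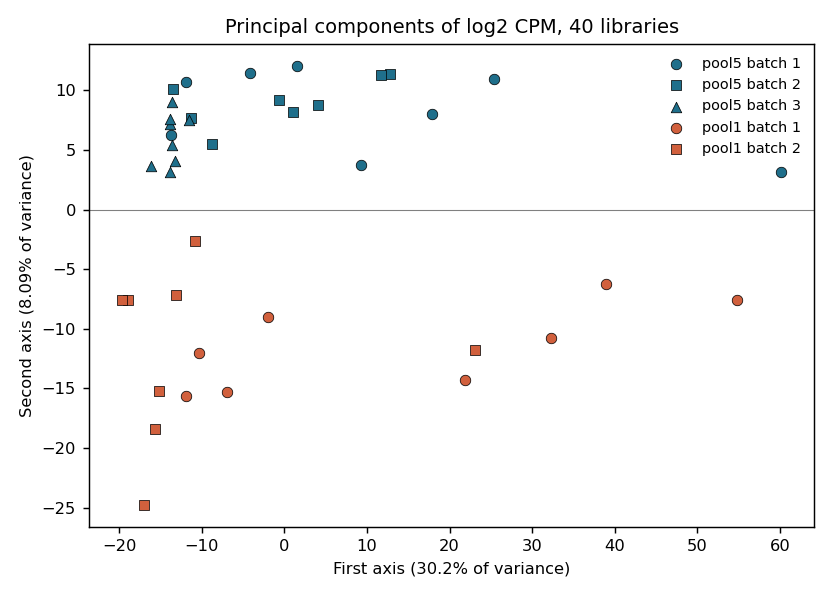
Position of the 24 pool5 and 16 pool1 libraries on the first (x) and second (y) principal components of log2 CPM over 2406 rows, in component units, with the marker showing the extraction batch. All pool5 libraries lie above all pool1 libraries on the second axis, while batch 1 of each pool size is the widest on the first axis.

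Libraries within a batch were more alike when each held 5 embryos. The Pearson correlation between 2 libraries of a batch, across rows, had a median of 0.95, 0.97 and 0.98 in pool5 batches 1, 2 and 3, against 0.89 and 0.89 in pool1 batches 1 and 2 (28 pairs of libraries in each batch). The rows are not independent replicates and these values only describe the libraries. The lowest pair of all, at 0.78, was in pool5 batch 1. No pair within a batch agreed within counting error, with a lowest chi-square per degree of freedom of 13.5, and each library was counted once.

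The common biological coefficient of variation is the spread between libraries of a batch that exceeds counting error, shared over all rows. It was 46.9%, 31.4% and 18.9% in pool5 batches 1, 2 and 3, against 70.5% and 65.7% in pool1 batches 1 and 2. No pool5 batch reached the lower pool1 batch, but the pool5 batches differed more among themselves. The means were 32.4% ± 14.1 in pool5 (SD, n = 3 batches) and 68.1% ± 3.33 in pool1 (SD, n = 2 batches), a ratio of 0.475. An exact two-sided permutation test over the 10 splits of the 5 batches gave p = 0.20, and the smallest p that 3 against 2 batches allow is 0.10. Averaging 5 independent embryos with the single-embryo spread would give 30.5%. Without sample 6 of pool5 batch 1 that batch had 33.7%, the ratio was 0.411 and the exact permutation p was 0.10. That library lay farthest from its batch, so leaving it out narrows that batch by construction. Without sample 8 of pool1 batch 2 the ratio was 0.487 and the exact permutation p was 0.20. Without samples 5 to 8 of batch 1 in both pool sizes the means were 25.4% in pool5 and 62.2% in pool1, with an exact permutation p of 0.10.

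The narrowing covered nearly all rows tested for spread, which were 2406 of the 3183 in the table. The within-batch variance of log2 CPM was lower in pool5 for 2336 of 2406 rows with a mean count of at least 20 (97.1%), and the median row had 31.5% of its pool1 variance. Averaging 5 independent embryos would leave 20% of the variance between embryos on the linear scale. The variance of log2 CPM also holds counting error, so the 2 values are not like for like. Against pool1, the median row had 68.5% of the variance in pool5 batch 1, 26.4% in batch 2 and 13.3% in batch 3. Without pool5 batch 3 the variance was lower in pool5 for 85.1% of 2407 rows. The median log2 variance ratio was then -1.02, against -1.67 with all batches. Without any other single batch the share of rows with a lower variance was 90.4% to 98.8%. The median SD of a row was 0.52, 0.33 and 0.22 log2 units in pool5 batches 1, 2 and 3, against 0.64 and 0.53 in pool1 batches 1 and 2. Rows with an SD over 1, a 2-fold spread, numbered 267, 55 and 27 in the pool5 batches, against 592 and 494 in the pool1 batches. In 617 rows (25.6%) the SD in pool5 was at most 0.5 times that in pool1. Rows with an SD over 2 numbered 4, 4 and 3, against 62 and 71.

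With 1 variance per row and batch, limma called no row for a difference in spread at an adjusted p under 0.05 (0%, smallest adjusted p = 0.0978). At an unadjusted p under 0.05 it found 397 rows with a lower variance in pool5 (16.5%) and 0 with a higher one. All 3 pool5 batches lay below both pool1 batches in 1008 rows (41.9%) and above both in 3 rows (0.125%). Without sample 6 of pool5 batch 1 limma called 246 rows, all lower in pool5. Leaving out that library, the farthest from its batch, narrows the batch by construction. Without sample 8 of pool1 batch 2 limma called 0 rows. Without samples 5 to 8 of batch 1 in both pool sizes it called 34, all lower in pool5. With the 40 libraries rather than the 5 batches as replicates, limma on absolute deviations called 788, again all lower in pool5. Those p-values may be too small, since libraries of a batch share an extraction.

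The narrowing was present in each abundance set of the rows tested. The 2406 rows with a mean count of at least 20 were divided into 5 equal sets by abundance. In the least abundant set, with mean counts of 20.1 to 62.8, the median row had 23.7% of its pool1 variance in pool5. From the next set to the most abundant one the values were 31.4%, 33.95%, 35% and 33.3%. In each set between 96.7% and 97.5% of the rows had a lower variance in pool5. The order of rows was largely kept, with a Spearman correlation of 0.80 between the SD in pool5 and the SD in pool1 over 2406 rows, a description in which both groups share the abundance of each row. Of the 100 widest rows of each group 36 were shared, or 36% of each list, against 4.16% for lists of that size that share rows by size alone.

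**Figure D2:**
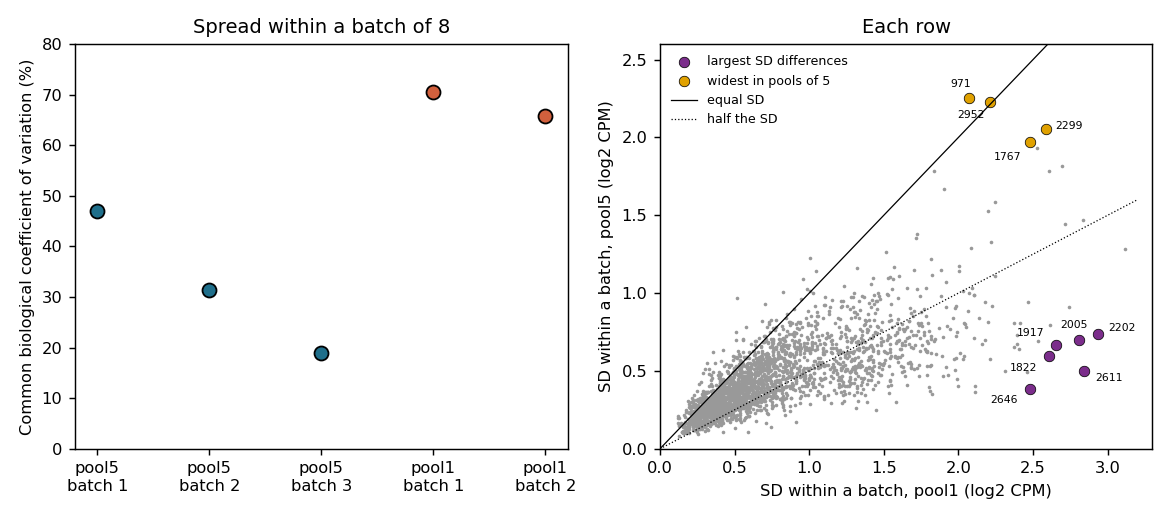
Left, the common biological coefficient of variation in percent (y) for each batch of 8 libraries, one point per batch. Right, each of 2406 rows by its within-batch SD, in log2 CPM, in pool5 (y) against pool1 (x), as the root of the mean batch variance, with 10 named rows marked; most points lie below the line of equal SD, and the 4 rows widest in pool5 lie near it.

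In the rows whose SD differed most between the groups, some single embryos lay below every pool. These were rows 2611, 2202, 2005, 2646, 1822 and 1917. They were chosen by that difference among rows with an unadjusted limma p under 0.05 and a lower variance in pool5. Their values and p-values are therefore a description. The highest library was a pool in rows 2005 and 1917. Low and high libraries are parted below at each row's widest gap, which any row has, and whether they form 2 classes was not tested. In row 2202 the low single embryos alone ran from 1.22 to 20.1 CPM, and the high ones began at 87.55 CPM. In row 2611 the 24 pools ran from 18.9 through a median of 48.2 to 81.2 CPM, and the single embryos from 0.449 through 47.4 to 124 CPM. Among the single embryos 7 lay at 7.21 CPM or lower and 9 at 39.7 CPM or higher, with none between. All 7 low embryos lay below every pool, and 5 of the 9 high ones lay above every pool. Its SD within a batch was 0.66, 0.33 and 0.47 log2 units in the pool5 batches, against 2.69 and 2.99 in the pool1 batches (limma adjusted p = 0.0978). The batch sums of row 2611 hardly differed, at 45.5, 47.4 and 55.4 CPM in pool5 and 42.6 and 54.985 CPM in pool1. Their log2 difference was 0.02 ± 0.20 (SE, n = 3 and 2 batches). It was -0.20 ± 0.19 in row 2202, -0.13 ± 0.33 in row 2646 and 0.60 ± 0.44 in row 2005. Rows 1822 and 1917 had larger ones, at 0.73 ± 0.19 and 0.75 ± 0.23 (edgeR p = 0.00596 and 0.0127, adjusted p = 0.823 each). In these rows every pool5 batch sum lay above both pool1 sums, so their level was not shown to be unchanged.

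Row 2005 reached the highest CPM among these rows. The pools ran from 101 through a median of 394 to 1275 CPM, and the single embryos from 8.60 through 22.2 to 1224 CPM. Of the single embryos 9 lay at 26.9 CPM or lower and 7 at 342 CPM or higher. The 9 low ones lay below every pool and none lay above every pool. Its SD was 0.77, 0.62 and 0.69 in the pool5 batches, against 2.92 and 2.68 in the pool1 batches (limma adjusted p = 0.0978).

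Row 1917 had the same layout. The pools ran from 85.4 through 357 to 743 CPM, and the single embryos from 7.85 through 211 to 554 CPM, with 6 at 12.1 CPM or lower and 10 at 165 CPM or higher. The 6 low embryos came from both batches and lay below every pool. In row 1822 the pools ran from 16.6 through 53.4 to 92.6 CPM, against 0.796 through 29.5 to 94.8 CPM in single embryos, 7 of which lay below every pool and 1 above. In row 2646 the pools ran from 38.9 through 63.7 to 136 CPM, against 0.590 through 78.7 to 227 CPM in single embryos, with 6 below every pool. Each of these rows thus had single embryos outside the range of all 24 pools.

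Row 2202 had single embryos on both sides of the pools. The pools ran from 30.4 through 75.9 to 173 CPM, against 1.22 through 53.8 to 246 CPM in single embryos, of which 8 lay below every pool and 5 above. Limma gave rows 2646, 1822, 1917 and 2202 adjusted p-values from 0.0978 to 0.103, so none of the 6 rows passed the threshold over all rows. Without sample 6 of pool5 batch 1, an omission that narrows that batch by construction, all 6 passed it.

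The exposure that began on 13 December held 8 pools of 10 embryos and 8 single embryos, 1 batch of each, and none of these libraries had a part in choosing the rows. In row 2611 the SD of log2 CPM was 0.63 in the pools of 10, against 1.96 in those single embryos. In row 1917 it was 0.35 against 2.76, and in row 2646 it was 0.36 against 2.46. In rows 2202, 2005 and 1822 it was 0.46, 0.86 and 0.40 in the pools of 10, against 2.17, 1.87 and 2.27 in the single embryos. All 6 were wider in single embryos there too, as were 2273 of the 2406 rows (94.5%).

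The 4 rows widest in pool5 are described next, with low and high libraries again parted at each row's widest gap. They were rows 971, 2952, 2299 and 1767. Their pool5 SD chose them, so a wide spread among the pools follows from the choice. In row 2299 the pools ran from 27.7 through a median of 513 to 2652 CPM, and the single embryos from 19.3 through 36.7 to 2489 CPM. Of the pools 6 lay at 47.4 CPM or lower and 18 at 211 CPM or higher. Of the single embryos 11 lay at 50.2 CPM or lower and 5 at 430 CPM or higher. The low pools and the low single embryos thus lay in the same range, and low pools occurred in all 3 batches.

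Row 971 ran from 0 through 8.91 to 32.5 CPM in pool5, against 0 through 0.354 to 76.9 CPM in pool1. Of the pools 9 lay at 0.832 CPM or lower and 15 at 5.23 CPM or higher, while 13 of the single embryos lay at 2.93 CPM or lower and 3 at 15.7 CPM or higher. All 3 high single embryos were in batch 1, where the batch sum was 19.9 CPM, and batch 2 had 0.131 CPM. In the exposure from 13 December all 8 pools of 10 held this row, from 4.20 to 16.0 CPM, while no single embryo exceeded 0.269 CPM (edgeR on 16 libraries, adjusted p = 2.39e-06). The 2 groups did not overlap there, where each pool size was 1 batch.

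In row 2952 the pools ran from 0.364 through 15.3 to 51.9 CPM, and the single embryos from 0 through 0.633 to 70.7 CPM. There 15 of the pools lay at 12.8 CPM or higher, against 2 of the single embryos at 69.7 CPM or higher. In row 1767 the pools ran from 0.444 through 13.6 to 83.3 CPM, against 0 through 2.00 to 179 CPM in single embryos, with 14 pools at 10.1 CPM or higher and 6 single embryos at 44.9 CPM or higher. High libraries were parted at each group's own gap, and the groups differ in size, so these numbers are not like for like. No single embryo lay between 5.47 and 69.7 CPM in row 2952, or between 2.87 and 44.9 CPM in row 1767. The pools' limits would thus count the same single embryos as high. In row 2952 the highest pool, at 51.9 CPM, lay below the 2 high single embryos. In both rows the highest single embryo lay above every pool. None of these 4 rows passed limma's test of spread, with adjusted p-values of 0.427 to 0.724. Their directions were not stable. Without samples 5 to 8 of batch 1 the log2 variance ratio of row 2299 was 2.00 in place of -0.63, and that of row 1767 was 0.59 in place of -0.74.

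**Figure D3:**
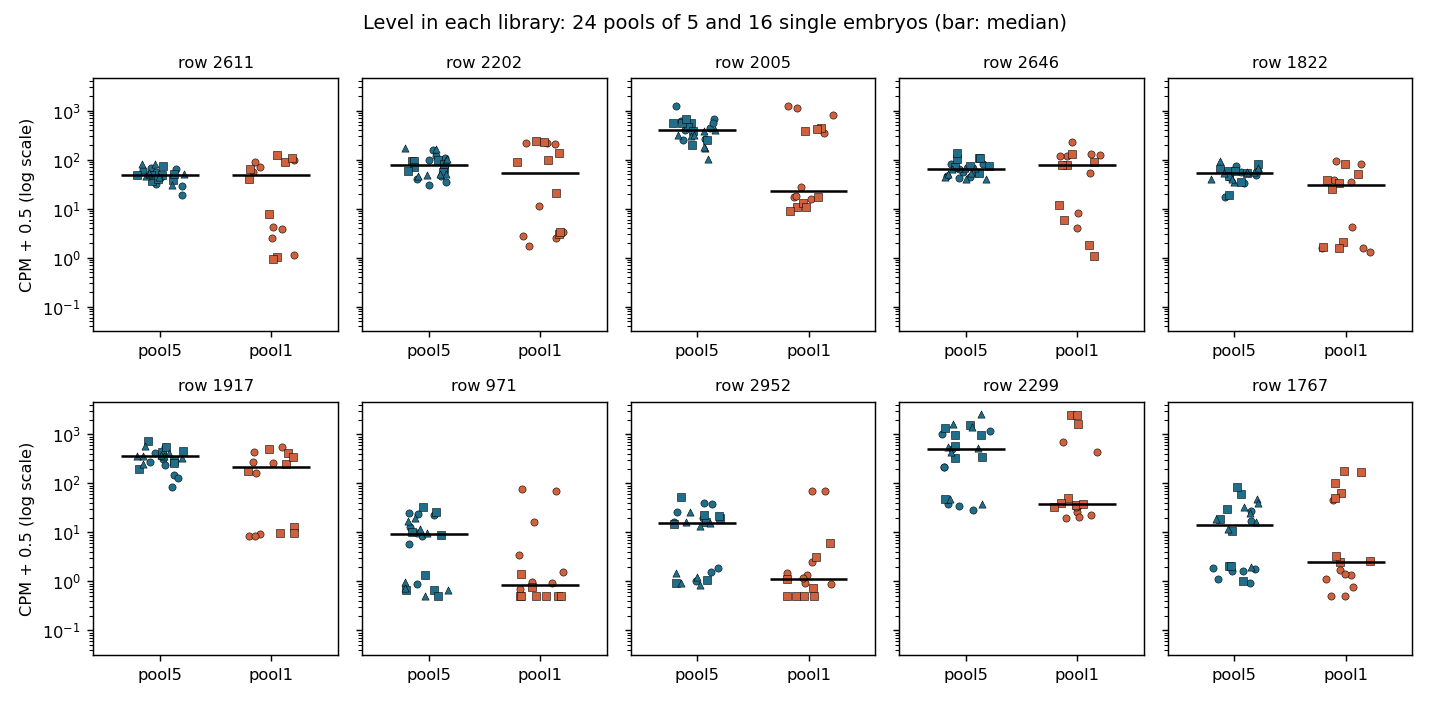
Level of 10 rows in each library, as CPM + 0.5 on a log axis (y), for the 24 pool5 and 16 pool1 libraries (x), with circles, squares and triangles for batches 1, 2 and 3 and bars at the medians. In the 6 rows from 2611 to 1917 some single embryos lie below every pool, and in the 4 rows from 971 to 1767 the pools hold low and high libraries as well.

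Each of these 10 rows was also set against all other rows for likeness among single embryos. The measure was the Pearson correlation of batch-centred log2 CPM over the 16 single embryos, highest of 2405 rows, and it shares library and depth. Row 112 was most like row 2611, with 0.86 over the 24 pools, 0.85 over the 16 single embryos and 0.88 over the 8 single embryos from 13 December. Row 2728 was most like row 2202, with 0.17 over the pools, 0.84 over the 16 single embryos and 0.77 over the 8. The partners of the other 8 rows had -0.39 to 0.30 over the pools and 0.68 to 0.84 over the 16 single embryos. Over the 8 single embryos from 13 December they had -0.54 to 0.27. Of the 10 partners only row 112 kept a correlation over 0.8 in all 3 sets of libraries.

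Single embryos, 16 of the 40 libraries (40%), held the lowest or the highest level of a row more often than that share. At least 1 of the 16 single embryos lay below every pool in 1670 of 2406 rows (69.4%) and above every pool in 1553 rows (64.5%). Both happened in 1027 rows (42.7%). At least 4 of the 16 lay below every pool in 535 rows (22.2%) and above every pool in 457 rows (18.99%). In the exposure from 13 December, 2.81 of 8 single embryos on average lay below all pools of 10 in those 535 rows, against 2.49 over all 2406 rows. Above the pools the means were 2.63 of 8 in the 457 rows and 2.15 over all rows.

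More rows were detected in a pool of 5 than in a single embryo. A row was called on in a library with at least 5 counts. Pool5 batches 1, 2 and 3 had 2799, 2841 and 2747 rows on per library, against 2590.5 and 2579 in pool1 batches 1 and 2. The means were 2796 ± 47.3 (SD, n = 3 batches) and 2585 ± 8.22 (SD, n = 2 batches), a difference of 211. The exact two-sided permutation p was 0.10, the smallest that 3 against 2 batches allow. The pools were also deeper. With every library thinned to 3000000 counts the means were 2682 ± 38.4 in pool5 and 2555 ± 5.75 in pool1, a difference of 127, again with an exact permutation p of 0.10.

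Over the 3183 rows, 1958 were on in all 40 libraries and 36 in none. A further 403 rows were on in every pool and in some but not all single embryos, 281 after thinning. Only 6 rows, 20 after thinning, were on in every single embryo and in some but not all pools. On in some pools but no single embryo were 65 rows, 52 after thinning. On in some single embryos but no pool were 29, 46 after thinning. With 24 pools and 16 single embryos a rare row has more chances to be on in some pool. These numbers are therefore not like for like. Among the 1189 rows that were on in some libraries and off in others, the share of libraries was higher in pool5 for 1054, lower for 114 and equal for 21. After thinning it was higher for 907, lower for 269 and equal for 26 of 1202 rows.

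Fisher's exact test on the numbers of libraries on and off, with Benjamini-Hochberg adjustment over those 1189 rows, called 120 rows on more often in pool5 (10.1%). It called none on less often (0%), where 2 rows had an unadjusted p under 0.05. Libraries of a batch share an extraction, so these p-values over libraries may be too small. In 114 of the 120 rows the share on was higher in each pool5 batch than in each pool1 batch, a pattern seen in 387 of the 1189 rows (32.5%). The reverse was seen in 10 of the 1189 rows (0.841%). The same libraries chose the 120 rows, so the 114 are a description and no separate test. After thinning 19 of 1202 rows were called (1.58%), of which 17 were among the 120, and 4 further random draws gave 16 to 21. Without samples 5 to 8 of batch 1 in both pool sizes 61 rows were called. The 120 rows were of low abundance, with a median mean count of 15.5 in pool5 and 8.50 in pool1.

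The share of pools that held a row followed the share of single embryos that held it, but lay between that share and the one for 5 independent draws. Of the rows on in 4 of 16 single embryos (25%), the pools held a mean of 49.04%, where 5 draws at that share would give 76.3%. For rows on in 8 of 16 (50%) the pools held 79.7%, where 5 draws would give 96.9%. After thinning the pools held 33.03% and 67.4% at the same shares. Rows on in no single embryo were on in 9.98% of the pools, 5.38% after thinning.

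**Figure D4:**
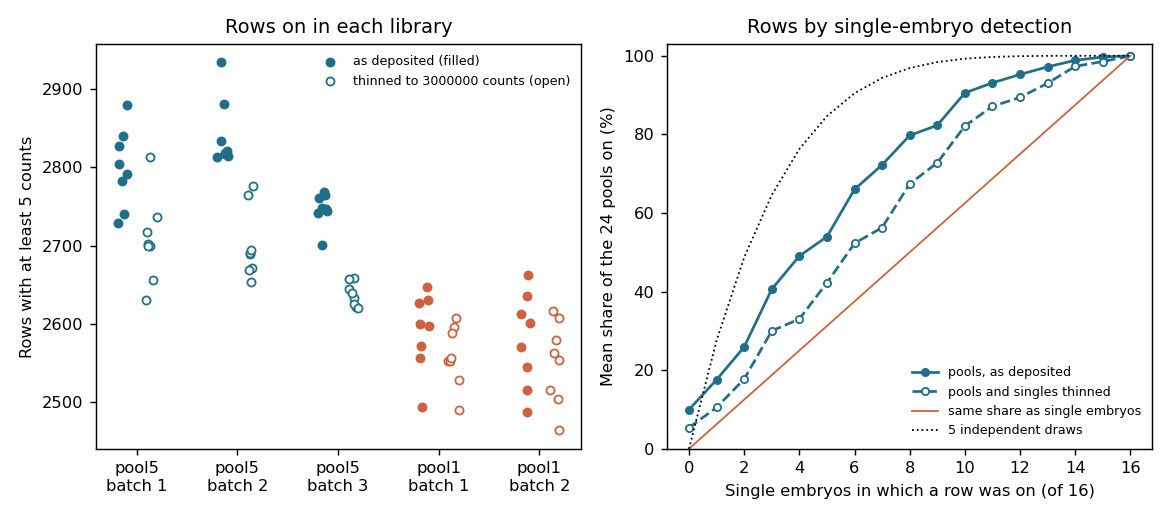
Left, rows with at least 5 counts in each library (y), by batch (x), as deposited and after thinning to 3000000 counts; the y axis does not start at 0. Right, the mean percent of the 24 pools in which a row was on (y) against the number of the 16 single embryos in which it was on (x). The pools lie above the line of equal shares except for rows on in all 16 single embryos (99.99%). They lie below the curve for 5 independent draws, which leaves out dilution in a pool, except for rows on in no single embryo.

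The rows with the largest difference in the share of libraries on were rows 167, 643, 2982 and 1671 and a further row that earlier results had singled out. Row 167 was on in 24 of 24 pools and in 4 of 16 single embryos, with 2 in each batch (Fisher's exact test, adjusted p = 0.000387; 23 and 4 after thinning, adjusted p = 0.00221). The pools ran from 1.03 through a median of 12.6 to 26.5 CPM, and the single embryos from 0 through 0.372 to 53.3 CPM. The highest single embryo lay above every pool although most single embryos were near 0. The batch sums were 13.1, 13.4 and 10.4 CPM in pool5, against 7.01 and 4.73 CPM in pool1. With a minimum of 1 count the share on in row 167 was 18.75 percentage points higher in pool5, and the call was lost (Fisher's exact test, adjusted p = 0.130).

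Row 643 was on in 22 pools and 3 single embryos (adjusted p = 0.00116), from 0.182 to 9.34 CPM in pool5 and from 0 to 3.42 CPM in pool1. Row 2982 was on in 19 pools and 1 single embryo (adjusted p = 0.00132), from 0 to 5.95 CPM in pool5 and from 0 to 1.55 CPM in pool1. Both sets of p-values are from Fisher's exact test, and after thinning they were 0.00606 and 0.0106. The call of row 643 was lost at a minimum of 10 counts (Fisher's exact test, adjusted p = 0.181) and without pool1 batch 2 (adjusted p = 0.0731), and that of row 2982 at a minimum of 1 count (adjusted p = 0.0694). In these rows the medians of the single embryos, 0.268 and 0.187 CPM, lay under the level of 3 counts.

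Row 1671 was on in 23 pools and 4 single embryos (adjusted p = 0.00116), from 0.880 through 6.45 to 17.8 CPM in pool5 and from 0 through 0.491 to 11.0 CPM in pool1. The further row was on in 20 pools and 2 single embryos (adjusted p = 0.00151), from 0 through 5.39 to 15.0 CPM in pool5 and from 0 to 17.7 CPM in pool1. Pools and single embryos overlapped in both rows, and in the further row the highest library was a single embryo. Fisher's exact test after thinning gave adjusted p-values of 0.0128 for row 1671 and 0.00382 for the further row. With a minimum of 1 count the call of row 1671 was lost (adjusted p = 0.252) and the further row had an adjusted p of 0.0297.

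In the other direction the largest differences in share were rows 1022, 1508, 2949, 543 and 2718, and none passed the test. Row 1022 was on in 6 of 24 pools and 10 of 16 single embryos (Fisher's exact test, adjusted p = 0.115), from 0 to 4.20 CPM and from 0 to 8.52 CPM. Row 2949 was on in 0 of 24 pools and 4 of 16 single embryos, from 0 to 0.687 CPM and from 0 to 2.44 CPM (adjusted p = 0.0979). Rows 1508, 543 and 2718 were on in 7, 3 and 2 pools, against 9, 6 and 5 single embryos. The medians of all 5 lay between 0 and 1.87 CPM in both groups, and with a minimum of 1 count the share was higher in pool5 for 4 of them.

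In the exposure from 13 December, 70 of the 120 rows were on in more of the 8 pools of 10 than of the 8 single embryos (58.3%) and 21 in fewer. Over all 1189 rows the numbers were 446 (37.5%) and 298. Of the 19 rows called after thinning, 13 were on in more of the pools of 10 and 1 in fewer. Row 2982 went the other way there, on in 4 pools of 10 and in 8 single embryos.

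No row passed the edgeR test of mean level with the batch as the replicate. By edgeR on the 5 batch sums, 0 of 3084 rows were called at an adjusted p under 0.05 (0%), with 174 at an unadjusted p under 0.05 (5.64%) and a smallest adjusted p of 0.261. DESeq2 on the same sums called 9 rows, and limma on the 40 libraries with the batch as a random effect called 19. Limma there tested the mean of log2 CPM over libraries and not the batch sums, so its calls are not like for like. By edgeR the median log2 difference, pool5 minus pool1, was -0.02, and the median absolute difference was 0.22. Past a 2-fold difference, 149 rows were higher in pool5 (4.83%) and 44 lower (1.43%). The 3 pool5 batches lay above both pool1 batches in 306 rows (9.92%) and below both in 377 (12.2%). With no difference between pool sizes, each of these orders would arise in 1 of the 10 splits of the 5 batches. An unadjusted p under 0.05 would then arise in a share of 0.05 of the rows. The shares found lie near these values. No row separated all 24 pools from all 16 single embryos in either direction.

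How the level was averaged mattered for the rows that varied most among single embryos. With the rows divided into 5 sets by pool1 SD, the widest set ran from 1.16 to 3.11 log2 units. There the mean of log2 CPM over libraries was higher in pool5 for 401 of 481 rows (83.4%), with a median difference of 0.42. The batch sums of those rows had a median log2 difference of -0.01, and 48.6% were higher in pool5. Over all 2406 rows the medians were 0.06 for the mean of logs and -0.04 for the batch sums. The pool1 SD that grouped the rows came from the same libraries as these differences. Over pools the mean of logs averages the logs of 5-embryo averages, and over single embryos it averages the logs of single levels.

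At an unadjusted p under 0.05 and with separate batches 85 rows were higher in pool5 (2.76%). Of those with a mean count of at least 20, a limit that leaves out larger differences at lower counts, the highest were rows 2021, 1671, 2780 and 244 and the further row on in 20 pools and 2 single embryos. In row 2021 the pools ran from 2.34 through a median of 9.37 to 54.1 CPM and the single embryos from 0.199 through 0.841 to 11.9 CPM. The batch sums were 17.5, 12.8 and 6.28 CPM in pool5, against 2.12 and 1.86 CPM in pool1. The log2 difference was 2.61 ± 0.49 (SE; edgeR p = 0.000976, adjusted p = 0.823; DESeq2 adjusted p = 5.83e-05), and 3.48 without samples 5 to 8 of batch 1. The batches did not overlap but the libraries did.

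In row 2780 the pools ran from 2.12 through 11.2 to 24.0 CPM, against 0 through 3.11 to 12.4 CPM in single embryos. The log2 difference of the batch sums was 1.56 ± 0.35 (SE; edgeR adjusted p = 0.823; DESeq2 adjusted p = 0.00863). In row 244 the pools ran from 6.14 through 14.6 to 205 CPM, against 0.752 through 7.27 to 32.3 CPM in single embryos, and pool5 batch 1, at 48.9 CPM, exceeded the other pool5 batches, at 14.4 and 16.0 CPM. In that batch sample 6 alone held 205 CPM, and the next library of the batch held 58.1 CPM. The log2 difference of row 244 was 1.43 ± 0.58 (SE; edgeR adjusted p = 0.854), 0.89 without sample 6 and 0.64 without pool5 batch 1. Row 1671 and the further row, described above, had log2 differences of 2.13 ± 0.66 and 1.81 ± 0.37 (SE; edgeR adjusted p = 0.823 each). Without samples 5 to 8 of batch 1 the further row had 2.596. In the exposure from 13 December the log2 difference, pools of 10 minus single embryos, was -1.57 in row 2021, -1.48 in row 1671, -1.81 in the further row, 1.22 in row 2780 and 0.12 in row 244. It was thus of the opposite sign in rows 2021 and 1671 and the further row. By edgeR on the 16 libraries none of the 5 was called there (adjusted p from 0.114 to 0.822, against 7.52% of 2567 rows called).

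At an unadjusted p under 0.05 and with separate batches 81 rows were lower in pool5 (2.63%). Of those with a mean count of at least 20 the lowest were rows 233, 2222, 2087 and 2905 and another row that earlier results had singled out. In row 2222 the pools ran from 4.66 through 10.1 to 18.0 CPM and the single embryos from 11.6 through 24.0 to 36.4 CPM. The batch sums were 10.4, 9.38 and 12.0 CPM in pool5, against 20.9 and 28.6 CPM in pool1. The log2 difference was -1.22 ± 0.24 (SE; edgeR p = 0.00145, adjusted p = 0.823; DESeq2 adjusted p = 0.00863). In the exposure from 13 December the pools of 10 ran from 4.95 to 13.5 CPM and the single embryos from 10.8 to 21.7 CPM. There edgeR, with libraries as replicates, called the row, with a log2 difference of -0.79 and an adjusted p of 0.0362. Each pool size was 1 batch there, so that call cannot separate pool size from batch. Row 2222 was thus lower in pools in both exposures, which share no library, although libraries of the 2 groups overlapped in both.

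In row 2087 the pools ran from 2.12 through 9.11 to 13.7 CPM and the single embryos from 5.82 through 20.5 to 31.8 CPM, a log2 difference of -1.17 ± 0.25 (SE; edgeR adjusted p = 0.823; DESeq2 adjusted p = 0.0214). In that other row the pools ran from 109 through 176 to 483 CPM and the single embryos from 122 through 231 to 4762 CPM. Its log2 difference was -1.28 ± 0.35 (SE; edgeR adjusted p = 0.823), and 1 single embryo of batch 2 held 4762 CPM while the next highest held 847 CPM. In row 2905 the medians were alike, at 4.73 CPM in pool5 and 4.28 CPM in pool1, while the highest values were 10.6 and 80.5 CPM. In row 233 they ran from 0.663 through 2.74 to 9.83 CPM in pool5, against 0.752 through 5.60 to 22.5 CPM in pool1. In the exposure from 13 December rows 2087 and 233 had log2 differences of -0.52 and -1.14 (edgeR on the 16 libraries, adjusted p = 0.363 and 0.199). The other row and row 2905 had -3.26 and -2.29 there (edgeR on the 16 libraries, adjusted p = 0.00630 and 0.0124). Those p-values take libraries of 1 batch per pool size as replicates, so pool size and batch cannot be told apart in them. All 5 rows thus had the same sign in the 2 exposures. The sign was also the same in 79 of 121 rows (65.3%) with an unadjusted p under 0.05 and separate batches, higher or lower. Over all 2567 rows fitted in both exposures the share was 58.3%.

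**Figure D5:**
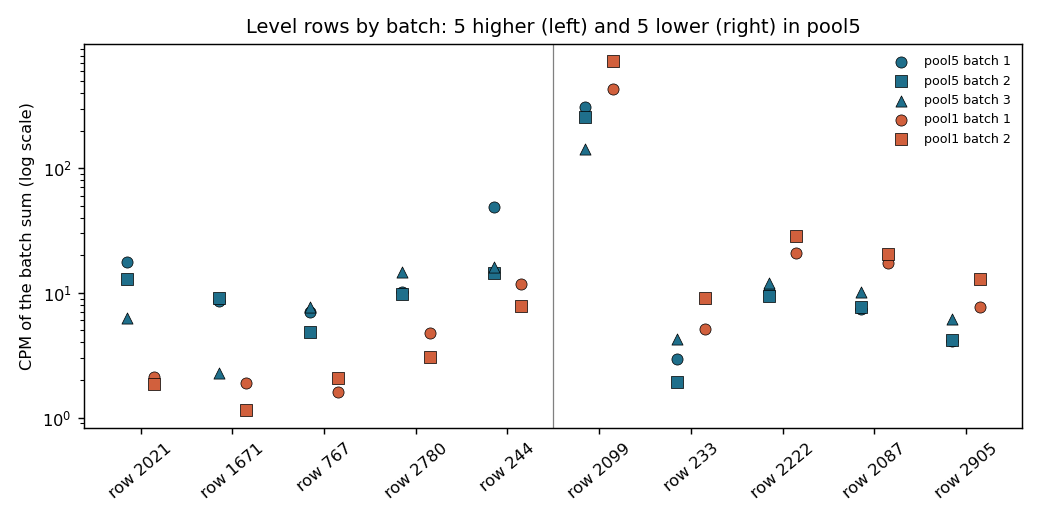
CPM of the batch sum on a log axis (y) for the 5 rows with the largest positive and the 5 with the largest negative log2 difference (x), each chosen among rows with an unadjusted p under 0.05, separate batches and a mean count of at least 20, with pool5 batches left of pool1 batches. The points of the 2 pool sizes do not overlap because the rows were chosen so.

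DESeq2's 9 rows were rows 214, 810, 975, 1262, 2021 and 2780 and the row on in 20 pools and 2 single embryos, all higher in pool5, and rows 2087 and 2222, lower. Rows 214, 810, 975 and 1262 were named after their values were seen. Of these, row 810 had the smallest edgeR p (8.47e-05, adjusted 0.261) and the smallest DESeq2 adjusted p (2.11e-11). Its batch sums were 5.57, 4.38 and 7.51 CPM in pool5, against 0.430 and 0.228 CPM in pool1. It was on in 21 of 24 pools and 3 of 16 single embryos (Fisher's exact test, adjusted p = 0.00277; 0.0111 after thinning), so libraries of the 2 groups overlapped. The abundant one was row 214, with batch sums of 3586, 3248 and 3341 CPM in pool5, against 1910 and 2236 CPM in pool1 (DESeq2 adjusted p = 0.0467). The batch sums of row 975 were 80.8, 106 and 142 CPM in pool5, against 48.99 and 41.9 CPM in pool1 (DESeq2 adjusted p = 0.00863). By contrast, row 1262 was on in 13 pools and in no single embryo, and after thinning in 7 pools (Fisher's exact test, adjusted p = 0.0100, 0.227 after thinning).

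None of the 3 most abundant rows was called. Row 2323 ran from 50052 through 75195 to 82942 CPM in pool5 and from 42485 through 58063 to 71440 CPM in pool1, a log2 difference of 0.34 ± 0.11 (SE; edgeR p = 0.0198, adjusted p = 0.823). Row 2293 ran from 33740 through 41663 to 45367 CPM, against 28371 through 34805 to 39171 CPM, a log2 difference of 0.25 ± 0.12 (SE; edgeR adjusted p = 0.857). Row 2325 had a log2 difference of 0.13 ± 0.18 (SE; edgeR adjusted p = 0.943). Its lowest library held 7633 CPM in pool5 and 12664 CPM in pool1, against medians of 32822 and 29181 CPM.

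Earlier results on the exposure from 13 December had singled out 3 further rows, where the log2 differences between pools of 10 and single embryos were 3.05, 2.80 and -4.44. Between pool5 and pool1 they were 0.32 ± 0.45, 0.39 ± 0.18 and 1.20 ± 0.81 (SE, n = 3 and 2 batches), and edgeR called none (adjusted p = 0.943, 0.857 and 0.917). The first of these ran from 8.29 through 214 to 377 CPM in pool5 and from 5.13 through 168 to 392 CPM in pool1. Its pool5 SD was 1.73, 0.93 and 0.16 log2 units in batches 1, 2 and 3, against 2.10 and 1.90 in the pool1 batches. The row widest of all among these single embryos was on in 22 of 24 pools and 8 of 16 single embryos (Fisher's exact test, adjusted p = 0.0528). It ran from 0.222 through 13.3 to 27.01 CPM in pool5 and from 0 through 14.02 to 58.9 CPM in pool1, where 8 embryos lay at 1.20 CPM or lower and 8 at 26.8 CPM or higher.

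Across the 2567 rows fitted in both exposures, the level differences of pool5 and of pools of 10, each against its own single embryos, had a Pearson correlation of 0.00. The sign was the same in 58.3% of the rows. The 2 comparisons share no library, and the rows are not independent replicates. Among the 193 rows that edgeR called on the 16 libraries of 13 December (7.52%), the sign on 12 December was the same in 134 (69.4%).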

How the data were processed

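TempO-Seq was run on whole zebrafish embryos, and the authors deposited raw read counts per feature. The values are whole numbers with no normalization. The submitters' processing notes list, with no order or role, DESeq2 1.31.15, RSEM 1.3.3, STAR 2.7.10a, fastp 0.23.2 and bcl2fastq 2.20. For build, annotation and counting step the entry is: not given in the sources used here. All 96 sample columns matched a label, and 0 were left unmapped.

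Rows, batches and libraries were chosen with earlier results of these data known. The batch was the replicate for level and spread. Level was tested with edgeR 4.0.16 in R 4.3.3 (filterByExpr, TMM, quasi-likelihood F test) on sums of the 8 libraries of a batch, and per-batch spread was taken from its common dispersion, as the square root, over the same rows. Spread per row was tested with limma 3.58.1 on the log2 variance of log2 CPM (prior count 2) within a batch, over rows with a mean count of at least 20. Detection used at least 5 counts and Fisher's exact test. P-values were adjusted by Benjamini-Hochberg over all rows tested, at 0.05. The tests were run on simulated data. A minimum recovery was required for the larger simulated level differences, on/off and absolute deviations, but not for limma on batch variances. Depth was 3336312 to 6441627 counts per library.

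Rows named for level had an unadjusted p under 0.05, separate batches and a mean count of at least 20. Of these the 5 highest and 5 lowest differences were taken. For spread they were the 6 largest falls in SD with an unadjusted p under 0.05, and the 4 widest in pool5. Also named were the 5 largest differences in the share on in each direction, the 3 most abundant, and 6 from earlier results. The row numbers of those 6 are not given in the text. The rule also asked for rises in SD with an unadjusted p under 0.05, of which there were 0. Alternatives were DESeq2 1.42.0, its size factors, other filters, thinned libraries, single libraries as replicates, the batch number as a block, and batches or libraries left out. Leaving out sample 8 of pool1 batch 2, further thinning draws and the settings for the second component were added after the data were seen.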

Additional observations from a re-analysis of the deposited data

Results flagged for a closer look

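Over 25 sets of 8 libraries, 5 measures in each of the 5 batches, 3 libraries lay far from the others of their batch. Chance gives about 1 in 20 such sets. Sample 6 of pool5 batch 1 differed from its batch by a root mean square of 1.37 log2 units, where the next library had 0.704. Sample 8 of pool1 batch 2 lay at 23.1 on the first principal component, where the next lay at -10.9. Sample 8 of pool5 batch 3 had 2701 rows on, where the next had 2742.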

How the results depend on the processing

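Level calls stayed at 0 without each batch, without the libraries that stood apart, with DESeq2 size factors in edgeR and with no filter. They were 9 by DESeq2 (7 higher in pool5), 157 by edgeR on single libraries (54 higher) and 19 by limma on single libraries with the batch as a random effect (13 higher). EdgeR on single libraries had no batch term, so its p-values may be too small. Limma tested the mean of log2 CPM and not the batch sums. Library numbers run by batch number across pool sizes, but no label says that a number marks a shared litter, batch or day. Across 3084 rows the differences of batch 1 from batch 2 in pool5 and in pool1 correlated at 0.34. With the replicate block on the batch number edgeR called 145 (71 higher) and limma 6 rows for spread. That block leaves the 5 batch values almost no freedom to estimate error. Pool5 batch 3 has no pool1 batch of its number, so it adds nothing to the difference there. These calls are therefore not taken as a result. Under that block the variance was lower in pool5 for 85.1% of the rows tested for spread. Spread calls ran from 0 to 57 without a batch, highest without pool5 batch 1 and 9 without pool5 batch 3. They were 246 without sample 6 of pool5 batch 1, an omission that narrows that batch by construction, and 0 without sample 8 of pool1 batch 2. They were 34 without samples 5 to 8 of batch 1 and 788 on absolute deviations, where libraries stood as replicates. All were lower in pool5, and the filters, thinning, prior count 0.5 and DESeq2 size factors gave 0. On/off calls ran from 24 to 85 without a batch. They were 61 without samples 5 to 8 of batch 1, 181 at a minimum of 1 count (180 on more in pool5), 31 at 10 counts, 76 at 1 CPM and 19 after thinning. The ratio of the coefficients of variation ran from 0.369 to 0.582 and the difference in rows on from 127 to 236. Without a batch the log2 variance ratio ran from -0.79 to 3.71 in row 971 and from -0.60 to 1.19 in row 2952, the lower value without pool1 batch 2. It turned to -0.16 in row 2952 with prior count 0.5. Without samples 5 to 8 of batch 1 it turned to 2.00 in row 2299 and 0.59 in row 1767. At a minimum of 1 count the difference in the percent of libraries on turned to 12.5 in row 1022, 4.17 in row 2949, 2.08 in row 543 and 6.25 in row 2718. Fewer counts pass a higher minimum by construction, and the cause of the other changes was not tested. Single-embryo libraries were shallower, and the part of depth in the on/off calls was not isolated.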
